A study of Mus musculus with 24 samples.

Results

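The lysyl oxidase family of the mouse, Lox, Loxl1, Loxl2, Loxl3 and Loxl4, was measured by poly(A) RNA sequencing of whole livers. The 5 members were taken by gene symbol from a count table of 56205 Ensembl gene identifiers, and each symbol matched 1 identifier (Lox ENSMUSG00000024529, Loxl1 ENSMUSG00000032334, Loxl2 ENSMUSG00000034205, Loxl3 ENSMUSG00000000693, Loxl4 ENSMUSG00000025185). All mice were C57BL/6J, an inbred strain in common use, and no engineered allele is named for them. Of the 24 libraries, 12 came from mice given the high fat diet called FFD and 12 from mice given the control diet (also called a chow diet in the labels), in both cases for 20 weeks. Each diet was given to 6 males and 6 females, but the sex of a single library was not labelled, and neither the composition of the diet called FFD nor the age of these mice is given in the sources used here. The comparison of the 2 diets asks how transcripts of the enzymes that cross-link collagen and elastin change with the diet.

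Lysyl oxidases are secreted, copper-dependent amine oxidases. They convert the side chains of lysine and hydroxylysine in collagen and elastin to aldehydes, which then react with neighbouring chains and join them covalently, so that fibres become stiffer and harder to degrade. In liver they are made largely by cells that also make matrix, such as activated stellate cells and portal fibroblasts, and the family has long been studied in liver fibrosis. Lox and Loxl1 have a propeptide that procollagen C-proteinase removes, whereas Loxl2, Loxl3 and Loxl4 carry scavenger receptor cysteine-rich domains ahead of the catalytic domain.

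The catalytic domain is the part that the members share, and its copper is held by 3 histidines that lie close together. The codons around these histidines are shown for 4 members, because this stretch is a signature of the family; capitals mark the 3 histidine codons. They were read 5′ to 3′ on the coding strand from the mm10 genome with GENCODE M21 transcripts, and in each gene the 39 bases are split by 1 intron, so the coordinates span both exons and that intron. The sequences lie at chr9:58293714-58294381 on the minus strand (Loxl1, exons 3 and 4 of 7), chr14:69682316-69689043 on the plus strand (Loxl2, exons 10 and 11 of 14), chr6:83049995-83050131 on the plus strand (Loxl3, exons 10 and 11 of 14) and chr19:42598801-42599899 on the minus strand (Loxl4, exons 11 and 12 of 15).
Loxl1: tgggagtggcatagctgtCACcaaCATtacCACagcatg
Loxl2: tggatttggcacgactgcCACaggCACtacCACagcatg
Loxl3: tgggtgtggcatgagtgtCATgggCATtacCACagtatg
Loxl4: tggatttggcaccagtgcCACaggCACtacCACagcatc
Loxl2 and Loxl4 were the closest pair in this stretch, with 36 of 39 bases identical (92.3%), and Loxl1 and Loxl4 the most distant, with 26 identical (66.7%).

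Total counts ranged from 16490817 to 21213070 in the FFD libraries and from 14468418 to 22112552 in the control libraries. Levels are given as CPM, read counts relative to the library total and scaled by TMM, edgeR's correction for differences in library makeup, and 3 counts corresponded to 0.118 to 0.305 CPM. Xist was counted 2664 to 6285 times in replicates 1 to 6 of both diets, where the Y-linked Ddx3y had no count. In replicates 7 to 12 it was counted 0 to 3 times, and Ddx3y 448 to 1016 times. The 2 sets, each with 6 libraries per diet, are called the high-Xist and the low-Xist set. Hepatocyte markers were present in every library: their summed level (Alb, Ttr, Apoa1, Cyp2e1, Cps1 and Hnf4a) was 36034 to 90812 CPM in FFD livers and 81391 to 129246 CPM in control livers. In whole-tissue RNA, fewer cells of a type and less RNA per cell cannot be told apart.

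Lox, Loxl1, Loxl2 and Loxl3 were higher in FFD than in control livers and Loxl4 was not called. Calls required an edgeR adjusted p no larger than 0.01 together with a log2 fold change beyond 0.5 in either direction, and by this rule 13.2% of the 17913 genes tested were higher and 4.99% lower, 18.2% in all. The median log2 fold change was 2.03 over the 5 members and -0.03 over all genes tested. The estimate was largest for Lox and smallest, among those called, for Loxl3.

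Lox, the founding member and a main cross-linker of fibrillar collagen, had the lowest level in control livers, 0, 0.180 and 0.963 CPM as the lowest, median and highest library. In FFD livers its lowest, median and highest levels were 1.12, 2.06 and 5.21 CPM. All 12 FFD libraries lay above the highest control library, so the diets did not overlap. The share of all genes tested without such overlap was not counted. The counts behind these values were small, 20 to 132 in FFD libraries and 0 to 17 in control libraries, of which 6 had 3 counts or fewer. Its mean was 2.53 ± 1.43 CPM (SD, n = 12) against 0.320 ± 0.328, and the log2 fold change was 2.91 (SE 0.43, edgeR adjusted p = 1.37e-05). Only 0.809% of the genes tested had a larger log2 fold change.

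Loxl1, which is needed for elastic fibre maintenance, varied most between FFD livers. Its levels were 2.45, 12.8 and 58.6 CPM (lowest, median and highest) in FFD libraries and 2.03, 3.18 and 10.1 CPM in control libraries. The FFD high came from replicate 9 and the control high from replicate 11, and 8 of 12 FFD libraries exceeded that control, so the diets overlapped. Without control replicate 11, the highest control was at 6.09 CPM and 11 FFD libraries exceeded it. The mean was 19.1 ± 15.5 CPM (SD, n = 12) in FFD livers and 3.82 ± 2.29 in controls, with a log2 fold change of 2.32 (SE 0.38, edgeR adjusted p = 3.71e-05). The coefficient of variation of Loxl1 was 80.8% among FFD libraries, against 31.5% to 56.6% for the other 4 members.

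Loxl2, which acts on collagen IV of basement membranes as well as on fibrillar collagen, was 2.85, 5.43 and 9.58 CPM in FFD libraries and 0.204, 1.34 and 3.57 CPM in control libraries. The overlap was slight, since 10 of 12 FFD libraries lay above the highest control library, again replicate 11. The means were 6.05 ± 2.07 and 1.46 ± 0.947 CPM (SD, n = 12 each). The log2 fold change was 2.03 (SE 0.28, edgeR adjusted p = 5.80e-06). Reads from the antisense gene Gm27177, which shares 301 exon bases with Loxl2, could not be told apart from Loxl2 reads if strand was not used in counting, which the sources used here do not say. Gm27177 itself was at 0.754 CPM in FFD and 0.556 CPM in control livers (edgeR adjusted p = 0.641).

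Loxl3, which takes part in cartilage and palate development, had the smallest estimate among the members called. Its levels were 2.99, 5.55 and 8.92 CPM in FFD libraries and 1.53, 2.54 and 4.75 CPM in control libraries, the highest control being replicate 6. The diets overlapped, with 7 of 12 FFD libraries above that control. The means were 5.38 ± 1.69 and 2.86 ± 0.992 CPM (SD, n = 12 each), a log2 fold change of 0.90 (SE 0.19, edgeR adjusted p = 0.000467). Loxl3 shares 535 exon bases with the antisense gene Htra2, which was at 16.4 CPM in FFD and 14.3 CPM in control livers (log2 fold change 0.20, edgeR adjusted p = 0.0432, not called), so the same limit on strand applies.

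Loxl4, a member of the branch with scavenger receptor cysteine-rich domains, overlapped widely between the diets. Its levels were 0.953, 1.64 and 3.11 CPM in FFD libraries and 0.378, 1.26 and 3.79 CPM in control libraries. No FFD library exceeded the highest control, which was replicate 1. The means were 1.78 ± 0.572 and 1.43 ± 0.821 CPM (SD, n = 12 each), and the log2 fold change of 0.31 (SE 0.24, edgeR adjusted p = 0.324) did not pass the threshold. Leaving out control replicate 1 gave an estimate of 0.55 on the log2 scale (edgeR adjusted p = 0.0375), above the fold threshold but still not called.

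**Figure D1:**
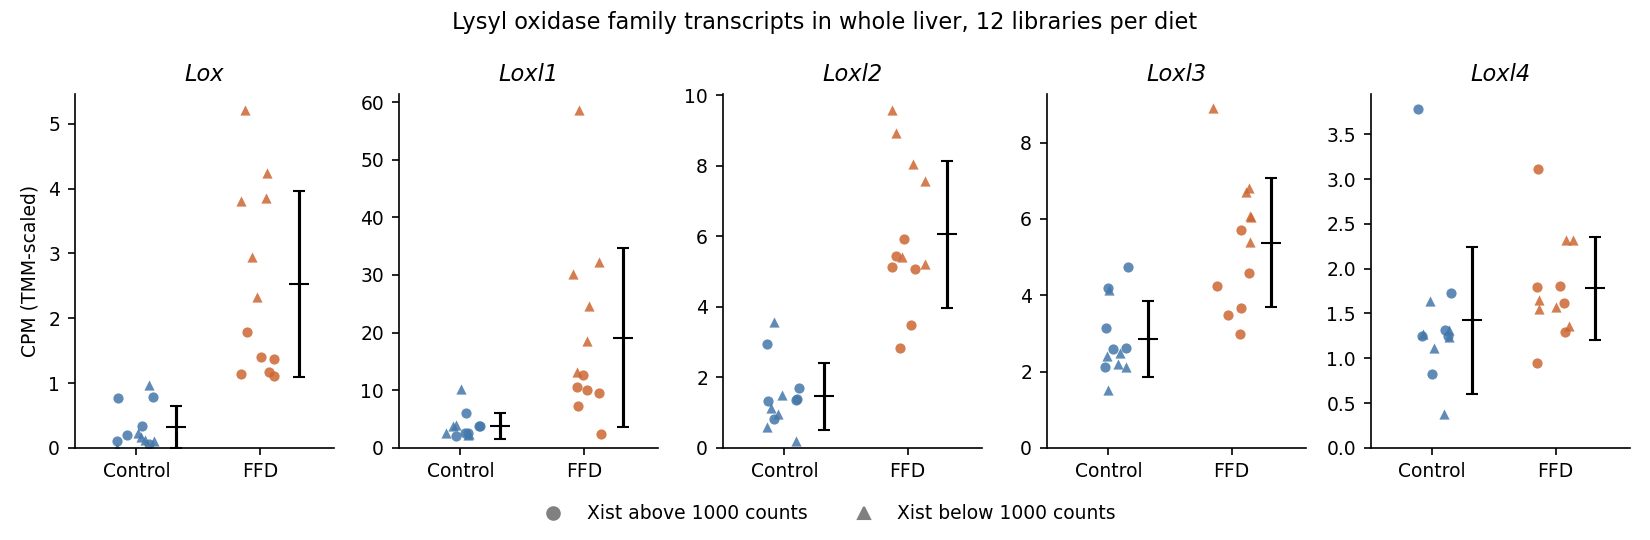
Level of each family member in every library (TMM-scaled CPM on a linear axis that differs between panels, 12 libraries per diet; circles are the high-Xist and triangles the low-Xist set, and bars are the mean ± SD, ended at 0 for Lox in controls). For Lox every FFD library lies above every control library (lowest FFD 1.12, highest control 0.963 CPM), while for Loxl4 the highest library is a control at 3.79 CPM.

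Levels of different genes were compared per length, as CPM per kilobase of annotated exon. Loxl1 was the most abundant member in both diets, at 5.81 ± 4.69 CPM per kb in FFD and 1.16 ± 0.694 in control livers (SD, n = 12), and it stood first in 11 of 12 libraries of each diet. The exceptions were FFD replicate 3, in which Loxl2 stood first, and control replicate 1, in which Loxl4 did. In FFD livers Loxl3 (1.17 ± 0.368) and Loxl2 (1.12 ± 0.384 CPM per kb) followed. These 2 neighbours did not differ beyond their spread, with Loxl3 above Loxl2 in 5 of 12 libraries. Lox (0.530 ± 0.300) and Loxl4 (0.423 ± 0.136) came last, with Lox above Loxl4 in 7 libraries, again within their spread.

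In control livers the order below Loxl1 was Loxl3 (0.621 ± 0.216 CPM per kb), Loxl4 (0.338 ± 0.195), Loxl2 (0.270 ± 0.175) and Lox (0.0670 ± 0.0686). Loxl3 was above Loxl4 in 11 of 12 libraries and Loxl2 above Lox in all 12, whereas Loxl4 was above Loxl2 in 8. Summed over the 5 members, the level per length was 3.01, 6.90 and 22.1 CPM per kb (lowest, median and highest) in FFD and 1.37, 2.10 and 5.23 in control libraries. Of that sum, Loxl3 made up 26.2% ± 4.46 in control and 15.1% ± 5.01 in FFD livers (SD, n = 12 each). Loxl4 made up 14.7% ± 7.59 and 6.11% ± 3.74, and Lox 2.34% ± 1.66 and 6.07% ± 1.6. Loxl1 made up 46.2% ± 9.10 in controls and 57.9% ± 13.8 in FFD livers, and Loxl2 10.6% ± 4.19 and 14.8% ± 6.38. These shares are parts of 1 sum and were not tested.

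**Figure D2:**
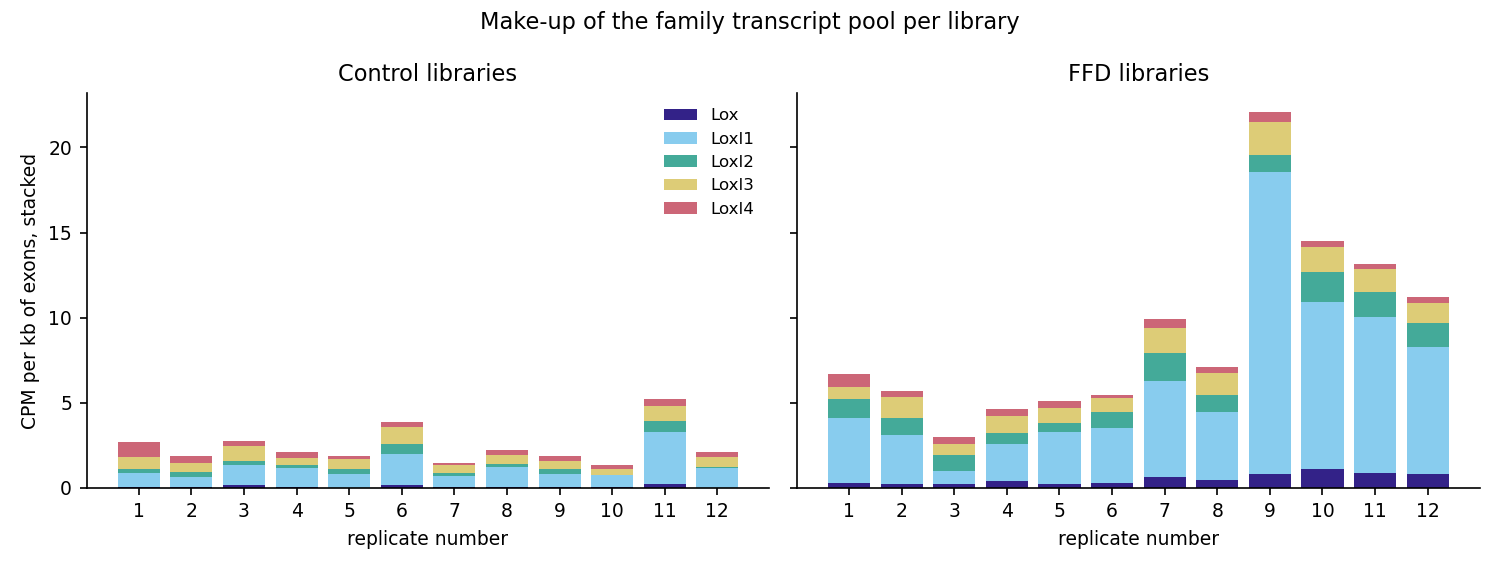
Level per length of the 5 members stacked in each library (CPM per kb of exons; replicate number on the horizontal axis, 12 libraries per diet). Stacks reach 1.37 to 5.23 CPM per kb in control and 3.01 to 22.1 in FFD libraries, and Loxl1 is the tallest layer in 11 of 12 libraries of each diet.

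The diet effect was then taken within each set of libraries. In the high-Xist set, in which 2.9% of genes were called higher and 0.882% lower, Loxl2 was the 1 member called (log2 fold change 1.54, SE 0.27, edgeR adjusted p = 0.00205). Lox (1.78, SE 0.44, edgeR adjusted p = 0.0153) and Loxl1 (1.33, SE 0.32, edgeR adjusted p = 0.0136) missed the threshold. The values for Loxl3 and Loxl4 there were 0.35 (edgeR adjusted p = 0.312) and 0.06 (edgeR adjusted p = 0.936). In the low-Xist set, in which 14.4% of genes were called higher and 7.99% lower, Lox, Loxl1, Loxl2 and Loxl3 were called, with log2 fold changes of 3.74 (SE 0.52), 2.83 (SE 0.42), 2.46 (SE 0.41) and 1.43 (SE 0.21) and edgeR adjusted p-values from 7.30e-05 to 0.000332. Loxl4 was at 0.65 (SE 0.29, edgeR adjusted p = 0.0971) in that set.

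The difference between the sets was tested as an interaction of diet and set, which passed an adjusted p of 0.01 for 4.06% of genes. No member passed. The diet effect of Loxl3 was 1.07 larger on the log2 scale in the low-Xist set (SE 0.30, edgeR adjusted p = 0.0244), that of Lox 1.96 larger (SE 0.72, edgeR adjusted p = 0.0837) and that of Loxl1 1.49 larger (SE 0.55, edgeR adjusted p = 0.0871). The FFD libraries themselves were apart for both Lox and Loxl1. Lox was at 1.12 to 1.79 CPM in the high-Xist and 2.33 to 5.21 CPM in the low-Xist FFD libraries, and Loxl1 at 2.45 to 12.6 and 13.1 to 58.6 CPM, without overlap in either case. Col1a1 was apart in the same way, at 34.4 to 89.4 CPM in the high-Xist and 109 to 214 CPM in the low-Xist FFD libraries. How many of all genes tested were apart in this way was not counted. Among summed cell type markers, 4 of 9 lists did not overlap between these libraries. Hepatocyte markers were lower in the low-Xist FFD libraries (67470 to 90812 CPM against 36034 to 47082 CPM). In control libraries the hepatocyte sums were 93804 to 129246 CPM in the high-Xist and 81391 to 97266 CPM in the low-Xist set, with overlap. Markers of monocyte-derived macrophages (136 to 290.0 against 415 to 952 CPM), portal fibroblasts (26.6 to 42.2 against 53.8 to 149 CPM) and activated stellate cells or myofibroblasts (206 to 249 against 276 to 368 CPM) were higher in the low-Xist FFD libraries. Spp1 had the highest mean of the macrophage markers in both diets, so the macrophage sum leans on this gene. The activated stellate sum leans on Dcn (mean 201 CPM in FFD and 128 CPM in control livers), and Acta2 adds little (4.92 and 3.41 CPM). In the same way the hepatocyte sum leans on Alb (45211 and 74355 CPM). The part of these cell types in the result was not tested.

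**Figure D3:**
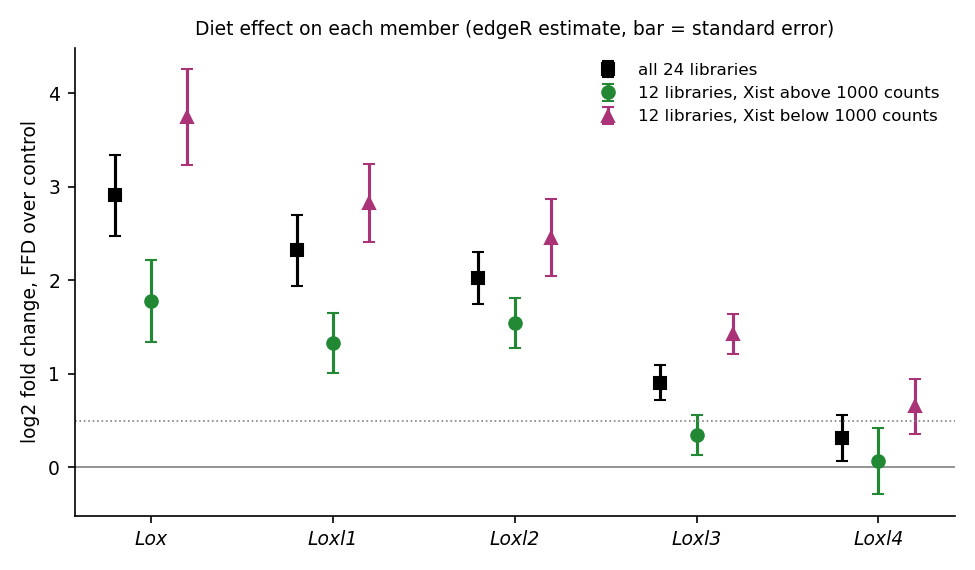
Log2 fold change of each member, FFD over control, from edgeR, over all 24 libraries and within the high-Xist and low-Xist sets of 12; bars are ± 1 SE, and the dotted line is the fold threshold of 0.5. For each member the estimate is larger in the low-Xist set, from 3.74 for Lox to 0.65 for Loxl4, but no member's difference between sets passes an adjusted p of 0.01.

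Col1a1, the main chain of type I collagen and so a chief substrate of these enzymes, had a larger estimate than any member (log2 fold change 3.12, 119 ± 68.2 against 13.6 ± 14.2 CPM, SD, n = 12). Expressed as a ratio to Col1a1 in limma, on the log2(CPM + 0.5) scale, each member was lower in FFD livers. The change was -1.38 for Lox (limma adjusted p = 0.000763), -1.28 for Loxl1 (limma adjusted p = 0.00201), -1.40 for Loxl2 (limma adjusted p = 0.000702), -2.41 for Loxl3 (limma adjusted p = 6.10e-09) and -2.92 for Loxl4 (limma adjusted p = 1.79e-12). The ratio to Col1a1 was lower for 99.7% and higher for 0.0112% of all genes, so these calls are not particular to the family.

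The pseudocount weighs on Lox, whose control values were near 0, and the ratio was therefore also taken as counts per 1000 Col1a1 counts, an alternative chosen after the data were seen. By this measure Lox was at 22.7 ± 6.71 in FFD and 26.6 ± 20.3 in control livers (SD, n = 12, two-sided permutation p = 0.556), and the call was lost. Loxl1 was at 154 ± 58.8 against 351 ± 106 (two-sided permutation p = 3e-05) and Loxl2 at 63.9 ± 34.0 against 133 ± 65.2 (two-sided permutation p = 0.00391). Loxl3 and Loxl4 had lower means in FFD livers too. Loxl3 was at 57.9 ± 29.2 against 296 ± 117 (two-sided permutation p = 1e-05, the smallest that 100000 resamples can give) and Loxl4 at 21.4 ± 14.8 against 169 ± 150 (two-sided permutation p = 2e-05). The share of all genes that fell by this measure was not counted. In limma 99.7% fell relative to Col1a1, so these lower ratios are not a trait of the family either.

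Whether a member followed Col1a1 from liver to liver was examined within each diet over 12 libraries, on log2(CPM + 1) values with the mean of each set subtracted, for 10 relations in all. Loxl1 followed Col1a1 in both diets. Pearson's r in FFD livers was 0.78, with a permutation p of 0.00226 (0.00753 after adjustment), and Spearman's rho was 0.79, with a permutation p of 0.00567 (0.02 after adjustment). Dropping the 2 FFD libraries whose Loxl1 level was most distant from the median gave r = 0.86. In control livers r reached 0.94 with a permutation p of 0.00038 (0.0037 after adjustment), rho was 0.88 with a permutation p of 0.00046 (0.0046 after adjustment), and r was 0.72 after the same trimming.

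Loxl3 followed Col1a1 in control livers, with r = 0.85 (permutation p = 0.00074, 0.0037 after adjustment; 0.86 after the same trimming) and rho = 0.75 (permutation p = 0.006, 0.02 after adjustment), but in FFD livers r was 0.01 (permutation p = 0.983) and rho -0.17 (permutation p = 0.636). Without FFD replicates 3 and 9, the 2 most distant from the median of Loxl3, r was -0.55 (permutation p = 0.136), so the value near 0 rests on those libraries. Whether these 2 values of r differ was not tested. Lox had r = 0.73 in control livers (permutation p = 0.0232, adjusted 0.0464) and rho = 0.35 (permutation p = 0.262), and r was 0.06 without replicates 6 and 11, so that the relation rests on those libraries. For Lox in FFD livers r was 0.56, with a permutation p of 0.0367 (0.0611 after adjustment), and rho was 0.45, with a permutation p of 0.123; trimmed in the same way, r was 0.47. Loxl2 had r = 0.84 in control livers (permutation p = 0.00525, adjusted 0.0131), rho = 0.60 (permutation p = 0.0666) and r = 0.58 (permutation p = 0.113) without replicates 10 and 11, and r = 0.40 with rho = 0.33 in FFD livers (permutation p = 0.219 and 0.312; r = 0.38 after trimming). Loxl4 showed r of 0.03 and 0.11 in FFD and control livers (permutation p = 0.947 and 0.655) and rho of -0.15 and 0.06 (permutation p = 0.667 and 0.873), and after trimming r was -0.18 and 0.24.

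**Figure D4:**
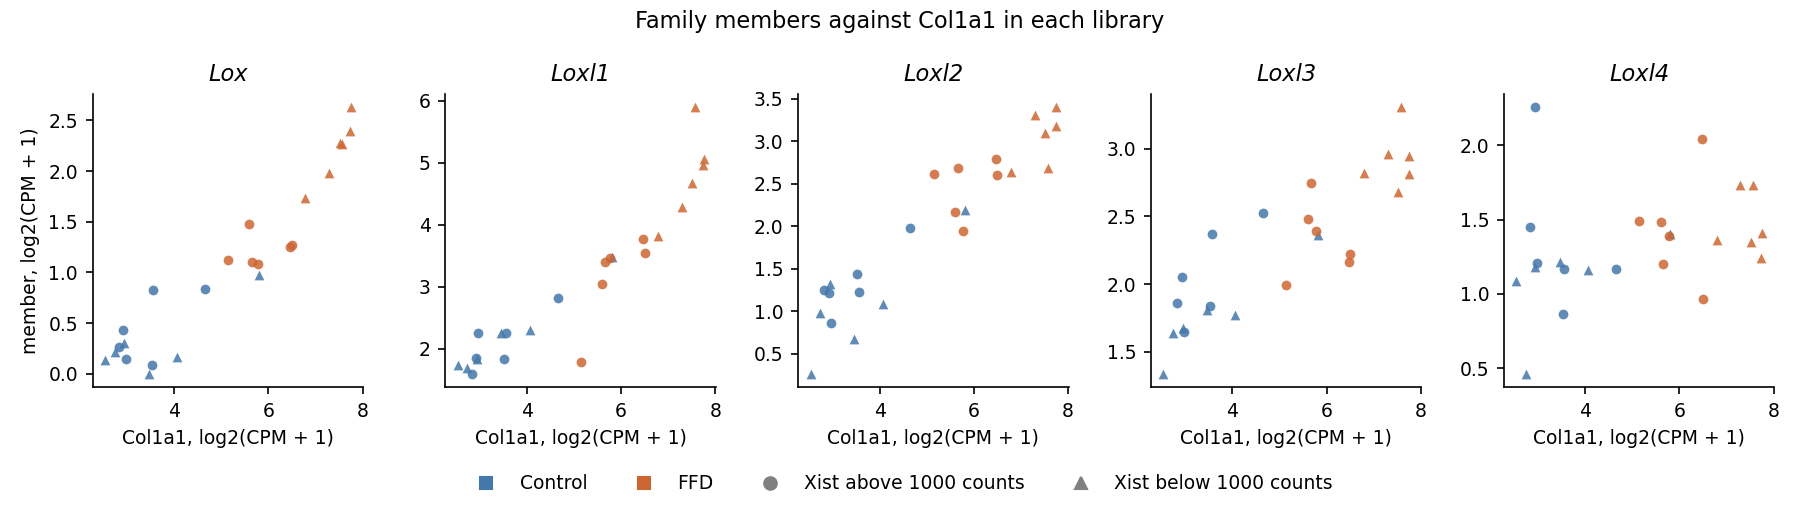
Level of each member against that of Col1a1 in the 24 libraries (log2(CPM + 1) on both axes, before set means are subtracted; colour gives the diet and shape the Xist set). Loxl1 rises with Col1a1 within both diets (r = 0.78 in FFD and 0.94 in control livers after set means are subtracted), whereas Loxl4 shows no such slope (r = 0.03 and 0.11).

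The genes around the family were grouped by role. For comparison, 13.2% of all genes tested were called higher and 4.99% lower. All 8 substrates tested (Col1a1, Col1a2, Col3a1, Col5a1, Col5a2, Col4a1, Col4a2 and Eln) were called higher, with a median log2 fold change of 2.26. Elastin (Eln), the substrate most tied to Loxl1, rose by 2.39 and the basement membrane chains Col4a1 and Col4a2 by 1.55 and 1.43 on the log2 scale. Of the genes for activation and scaffolding, 9 of the 14 tested were higher, 1 lower and 4 not called (median log2 fold change 1.09). Bmp1, the procollagen C-proteinase that removes the propeptide of Lox, was the 1 called lower, from 175 to 103 CPM (log2 fold change -0.76, edgeR adjusted p = 8.26e-06). Its enhancer Pcolce rose by 1.12, the collagen-binding proteoglycan Fmod, which brings Lox to collagen, by 2.07, the elastic fibre proteins Efemp2 and Fbln5 by 1.44 and 0.87, and the matricellular genes Postn and Thbs1 by 1.22 and 2.01. Fibronectin (Fn1), a scaffold for Lox processing, was at -0.52 and was not called (edgeR adjusted p = 0.0122).

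None of the 8 copper supply genes, which include the transporter Atp7a that loads secreted enzymes with copper, was called (median log2 fold change -0.09). Over all genes tested 18.2% were called, so a list this short with no call is not unusual. Slc31a1, Slc31a2 and Ccs had edgeR adjusted p-values of 0.00358, 0.00306 and 0.00801 but log2 fold changes of -0.34, 0.36 and -0.36, under the fold threshold. Of 9 genes for lysine hydroxylation and collagen folding, 4 were higher and 5 not called. Plod2, which hydroxylates the telopeptide lysines on which lysyl oxidases act, rose by 1.72, its partner Fkbp10 by 1.80, the collagen chaperone Serpinh1 by 1.74 and Crtap by 1.04. Among other cross-linking enzymes 3 of 4 tested were higher, namely the transglutaminases Tgm2 (log2 fold change 1.20, from 149 to 344 CPM) and F13a1 (2.32) and the peroxidase Pxdn (0.65). F13a1 was low, with a median of 0.653 CPM in FFD and 0.140 CPM in control livers and a highest FFD library at 5.65 CPM. The 3 other copper amine oxidases, Aoc1, Aoc2 and Aoc3, were not called. Of the 8 regulators, 4 were higher, the ligands Tgfb1 (1.29), Tgfb2 (2.49) and Tgfb3 (1.85) and the transcription factor Snai1 (1.34), while Ccn2, Hif1a, Snai2 and Twist1 were not called. Tgfb2 was low as well, with a median of 0.907 CPM in FFD and 0.402 CPM in control livers and a highest FFD library at 12.4 CPM.

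**Figure D5:**
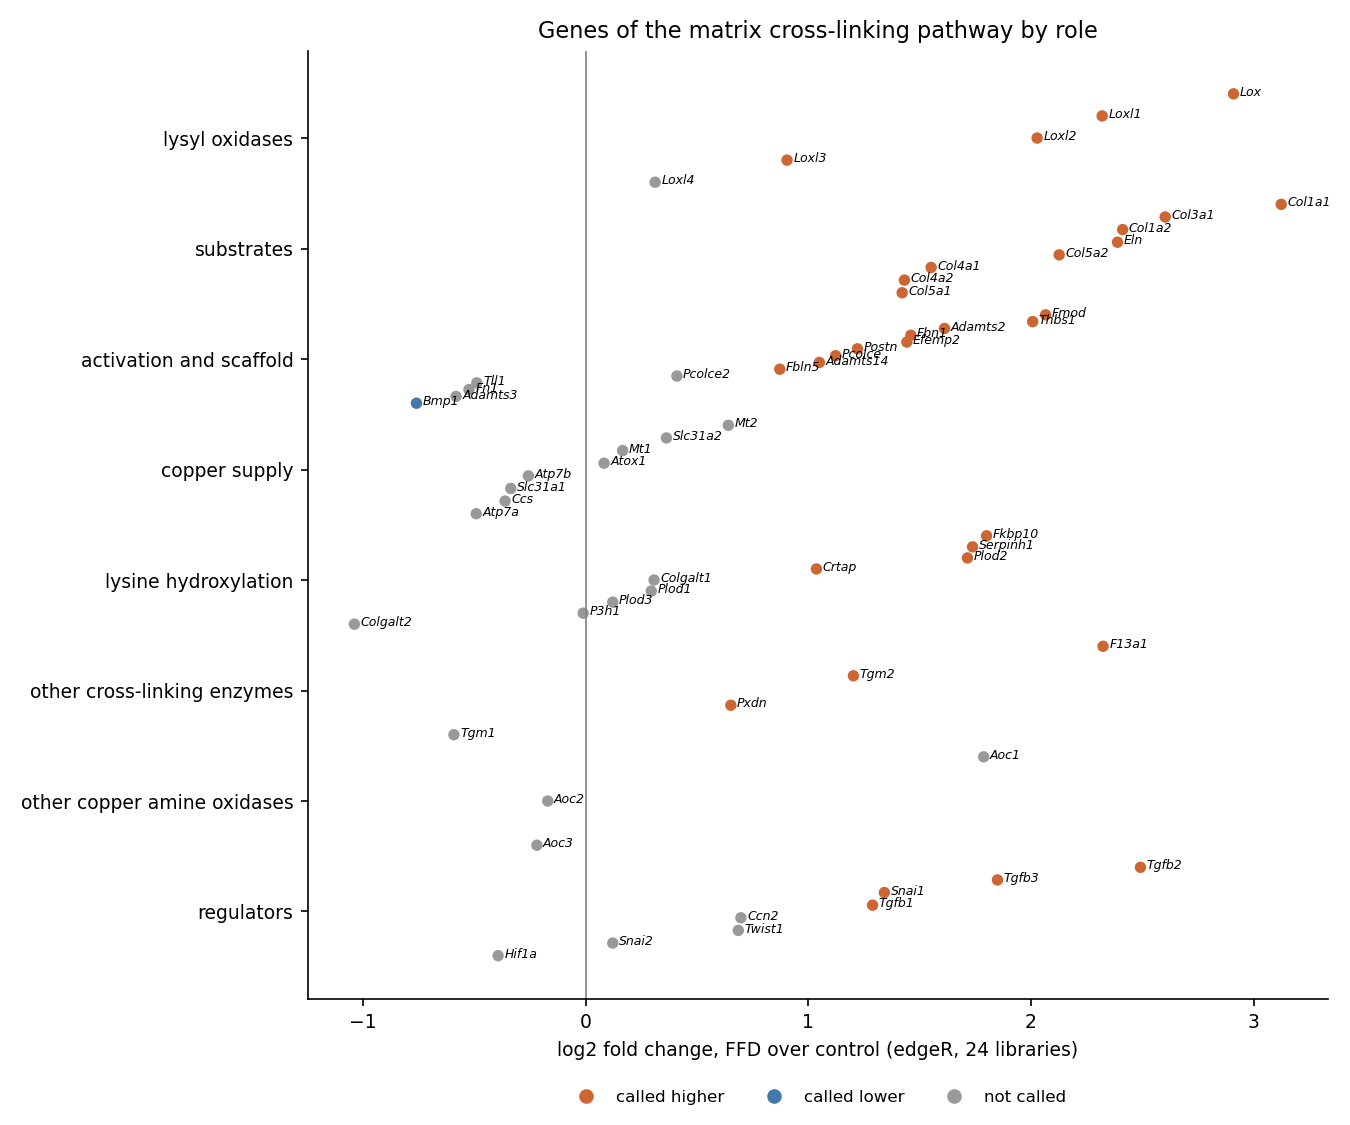
Log2 fold change, FFD over control, from edgeR over 24 libraries, for each tested gene of the family and of 7 lists by role; colour gives the call. All 8 substrates are called higher, none of the 8 copper supply genes is called, and Bmp1 (-0.76) is the 1 gene called lower. Of all genes tested, 18.2% are called.

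Markers of several cell types moved with the diet, where 13.2% of all genes tested were called higher and 4.99% lower. Of the 6 hepatocyte markers, 4 were lower and none higher. All 8 markers of monocyte-derived macrophages were higher, with a summed level of 136 to 952 CPM in FFD and 46.2 to 162 CPM in control livers. Spp1 had the highest mean of these markers in both diets (268 and 43.5 CPM) and reached 729 CPM in FFD livers. The next in FFD livers was Gpnmb, with a mean of 66.7 CPM, so the macrophage sum leans on Spp1. Portal fibroblast markers (5 of 8 higher) summed to 26.6 to 149 CPM against 13.4 to 36.8 CPM, and cholangiocyte markers (5 of 6 higher) to 5.97 to 174 CPM against 4.89 to 15.9 CPM. The cholangiocyte sum of 174 CPM came from FFD replicate 9, and the next library was at 40.7 CPM. High-Xist FFD libraries, at 5.97 to 14.7 CPM, lay within the control range of that sum. Of 7 markers tested for activated stellate cells or myofibroblasts, 5 were higher, with sums of 206 to 368 CPM against 110 to 221 CPM, but Acta2 was not (log2 fold change 0.53, edgeR adjusted p = 0.0300). Dcn had the highest mean of these markers (201 CPM in FFD and 128 CPM in control livers), so their sum leans on Dcn. For quiescent stellate cells 3 of 8 markers were higher, with sums of 297 to 486 CPM against 212 to 505 CPM. Of the markers of Kupffer cells, sinusoidal endothelium and vascular smooth muscle, 1 of 5, 1 of 6 and 1 of 5 were higher, near the share of all genes. Their sums were 170 to 779 against 109 to 468 CPM for Kupffer cells, 133 to 342 against 143 to 315 CPM for sinusoidal endothelium and 11.5 to 23.3 against 6.40 to 16 CPM for vascular smooth muscle (FFD against control). Cd5l, the 1 Kupffer cell marker called, had means of 259.5 CPM in FFD and 80.2 CPM in control livers, so the Kupffer cell sum in FFD livers leans on it. No listed marker was at 0 counts in every library.

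Some libraries with extreme family values also had extreme marker sums. FFD replicate 9, highest in Loxl1, had the highest portal fibroblast, cholangiocyte and macrophage sums (149, 174 and 952 CPM) and the lowest hepatocyte sum (36034 CPM) of all libraries, though it ranked 3 for activated stellate markers (350 CPM). FFD replicate 3, lowest in Loxl1 among FFD livers, had the lowest portal fibroblast and macrophage sums of that diet (26.6 and 136 CPM). Control replicate 11, the highest control for Lox, Loxl1 and Loxl2, had the highest portal fibroblast, cholangiocyte and macrophage sums among controls (36.8, 15.9 and 162 CPM). Its sum of activated stellate markers (220.5 CPM) was the highest among controls too. Control replicate 2, lowest in Loxl1 of all 24 libraries (2.03 CPM), was not the lowest control for the portal fibroblast, cholangiocyte, macrophage or activated stellate sum (13.9, 5.94, 54.2 and 153.7 CPM). The part of these cell types in the family's values was not tested. Without FFD replicate 9 the log2 fold change of Loxl1 was 2.04, and without control replicate 11 those of Lox, Loxl1 and Loxl2 were 3.17, 2.55 and 2.22, all still called.

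The genes most like each member were taken as those with the highest Pearson's r over the 24 libraries after subtracting the mean of each diet and set, among 13916 other genes with a mean of at least 10 counts. For Loxl1 they were Mmp2 (r = 0.97), Olfml3 (0.93) and Col6a3 (0.93), a matrix metalloproteinase, a secreted olfactomedin-like protein and a collagen VI chain. Lox was closest to Chst2 (0.78), Col5a2 (0.74) and Fscn1 (0.73), Loxl2 to Golm1 (0.87), Gltp (0.84) and Kbtbd11 (0.83), and Loxl3 to Myof (0.86), Fscn1 (0.83) and Ppp1r9b (0.82). For Loxl4 they were Tjp3 (0.78), a tight junction protein, the clock repressor Nr1d1 (0.72) and Map4k2 (0.72). Col1a1 stood at rank 18 for Lox, 90 for Loxl1, 48 for Loxl2, 221 for Loxl3 and 4904 for Loxl4. Between members r was 0.37 to 0.66 among Lox, Loxl1, Loxl2 and Loxl3, and 0.08 to 0.14 between Loxl4 and each of these. All points share the 24 libraries and their depth, and these values are a description.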

How the data were processed

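Total RNA of whole livers was extracted with Trizol and sequenced as poly(A)-selected libraries. The authors deposited 1 table of raw counts per Ensembl gene for 24 libraries, with no normalization. The submitters' processing notes name bcl2fastq, STAR 2.7.3a and the build mm10, whereas the annotation, the counter and its strand setting for the mouse libraries are not given in the sources used here. Symbols were found for 51745 of the 56205 identifiers. The 4460 without one held 0.0723% of counts.

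Groups were taken from the labels. The 17913 genes detected (1 count or more) in 12 or more libraries were fitted with edgeR 4.0.16 (quasi-likelihood test, TMM, R 4.3.3), with Benjamini-Hochberg adjustment over all of them. Ratios to Col1a1 used limma 3.58.1 (lmFit and eBayes with trend), and correlations were tested with 100000 permutations within library sets. DESeq2 1.42.0, limma-voom, other scalings and filters, library sets, a replicate block and leaving out each library were tried as alternatives. The scripts were tested on simulated data. No pair of libraries of a diet agreed within sampling noise (lowest chi-square per degree of freedom 9.47), and none was counted as a duplicate. Lengths are merged exons of GENCODE M21.

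Genes named are the 5 members, every gene of the pathway and marker lists where a value is given, and the 3 genes most like each member. The members and lists were chosen with earlier results of these data known. Once set means were removed, the deviations of same-numbered libraries had correlations from -0.26 to 0.28. Such values cannot show whether mice of the same number were matched. Replicate numbers were not used as pairs in the main fit, and a fit with the replicate block is given below.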

Additional observations from a re-analysis of the deposited data

Results flagged for a closer look

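In 40 checks of groups of 6 libraries (each diet within each set), 4 values, from 2 libraries, stood apart from the others of their group by Dixon's test, which flags about 1 in 20 groups by chance. Control replicate 11 of the low-Xist set was highest for 3 members: Lox at 0.963 CPM (next 0.230), Loxl1 at 10.1 CPM (next 3.95) and Loxl3 at 4.14 CPM (next 2.50). Control replicate 1 of the high-Xist set was highest for Loxl4, at 3.79 CPM (next 1.73).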

How the results depend on the processing

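Lox, Loxl1, Loxl2 and Loxl3 were called and Loxl4 was not under DESeq2, limma-voom, library totals, DESeq2 size factors, both other filters, the library set as a covariate and the low-Xist set alone. Within the 12 high-Xist libraries 1 member and 3.78% of all genes tested were called, and Lox (1.78), Loxl1 (1.33) and Loxl3 (0.35) fell short. The cause of this difference between the sets was not tested. A threshold of a log2 fold change over 1 called 3 members and 10.6% of all genes tested. Leaving out each library in turn kept every call, with log2 fold changes of 2.78 to 3.17 for Lox, 2.04 to 2.55 for Loxl1, 1.94 to 2.22 for Loxl2, 0.83 to 0.995 for Loxl3 and 0.21 to 0.55 for Loxl4. With the replicate block 4 members were called, with log2 fold changes of 3.0 (Lox), 2.06 (Loxl1), 2.10 (Loxl2), 0.91 (Loxl3) and 0.39 (Loxl4, not called). Over all genes that fit called 2063 higher and 844 lower, and ratios, correlations and lists were not refitted with it. In the low-Xist set the ratios to Col1a1 of Lox (-1.39, limma adjusted p = 0.0147) and Loxl1 (-1.21, limma adjusted p = 0.0363) missed the threshold. Over all 24 libraries, Lox per Col1a1 count changed by -0.23 on the log2 scale (permutation p = 0.556). With library totals in place of TMM, 94.4% of calls were higher (3827 higher, 226 lower), against 72.6% in the edgeR fit with TMM (2372 higher, 894 lower), and the median of all genes moved from -0.03 to 0.26, so changes near that size depend on scaling. Small counts limit Lox most, as 6 control libraries held 3 counts or fewer.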
